A study of Mus musculus with 103 samples.

Results

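The nuclear genes of the mitochondrial respiratory chain and ATP synthase were followed in muscle stem cells of C57BL/6 mice. Muscle stem cells, or satellite cells, lie beside the fibres of adult skeletal muscle and rebuild them after injury. Members were chosen by symbol among the genes with an Ensembl ID in both deposited tables: the Nduf subunit names, Uqc, Cox4 to Cox8, Atp5, and Sdha, Sdhb, Sdhc and Sdhd. This gave 88 of the 43283 genes of the bulk table and of the 43282 genes of the table of wells, with 38 members in complex I, 4 in complex II, 11 in complex III, 18 in complex IV and 17 in complex V. A further 4 genes with -ps in the symbol, which marks pseudogenes, were left out, and each was listed at 0 in every bulk library.

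The bulk RNA libraries came from untreated wild-type cells of 3 young, 2 middle-aged and 3 old mice, 1 library per mouse. The labels give the young mice as 3 months old, while the sample descriptions name the same libraries 2 months, the middle-aged mice as 12 and 13 months and the old mice as 24 months. Single cells were sequenced from 1 old mouse (31 wells) and 1 young mouse (64 wells). All samples share the strain. The protocols describe growth in a medium with fibroblast growth factor 2 but do not say whether RNA was taken before or after it, the design text speaks of myoblasts, and no sorting markers are given.

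The respiratory chain sits in the inner mitochondrial membrane. Complexes I and II take electrons from NADH and succinate and pass them to ubiquinone, complex III hands them on to cytochrome c, and complex IV passes them to oxygen. Complexes I, III and IV pump protons as they do so, and complex V, the ATP synthase, uses the returning protons to make ATP. Complex II is encoded wholly in the nucleus, whereas the others combine nuclear subunits with a few encoded by mitochondrial DNA. Quiescent muscle stem cells are known for few mitochondria and low respiration, and fatty acid oxidation and respiration are described as part of their state before activation.

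Values are TPM, which correct for transcript length and give each transcript as a share of its library, so the depth of a library cannot be read from them and no counting error can be given. The protocol states 1 common read range for all samples, not the depth of each. The number of genes at 1 TPM or more lay between 12849 and 17114 per bulk library, and transcripts of the mitochondrial genome took 32.7 to 46.5% of all TPM. The cells carried their lineage markers: Pax7, the defining transcription factor of satellite cells, had 308, 316 and 248 TPM in young, 231 and 127 TPM in the middle-aged pair and 219, 246 and 185 TPM in old libraries. Summed over 12 markers of muscle stem cells, old libraries had 1490 to 2159 TPM and young libraries 2273 to 2636 TPM. Markers of other cells are given below with the comparisons.

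Most members were transcribed at a moderate level, with 1 far above the rest. The mean TPM over the 8 bulk libraries had a median of 25 over the 88 members. Atp5b, the catalytic beta subunit of ATP synthase, had 1348, 1472 and 1155 TPM in young, 1476 and 1342 TPM in the middle-aged pair and 1290, 1415 and 2382 TPM in old libraries. It was the highest member in each library and made up 27.7 to 45.8% of the members' summed TPM. The next highest member of a library was Cox4i1, Cox7a2l, Uqcrh or Atp5j, at 169 to 313 TPM. Atp5a1, the alpha subunit that pairs with Atp5b in the enzyme in equal number, had 130, 131 and 134 TPM in young, 131 and 133 TPM in the middle-aged pair and 102, 123 and 130 TPM in old libraries. The level of Atp5b was thus 8.60 to 18.3 times that of Atp5a1 in each bulk library, on a scale that corrects for transcript length. In the young wells, the mean TPM of Atp5b was 3.25 times that of Atp5a1. The Atp5b gene (chr10:128083273-128090391, plus strand, mm10) also holds the small RNA genes Snord59a and Mir677, and the part of these in its value was not tested.

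**Figure D1:**
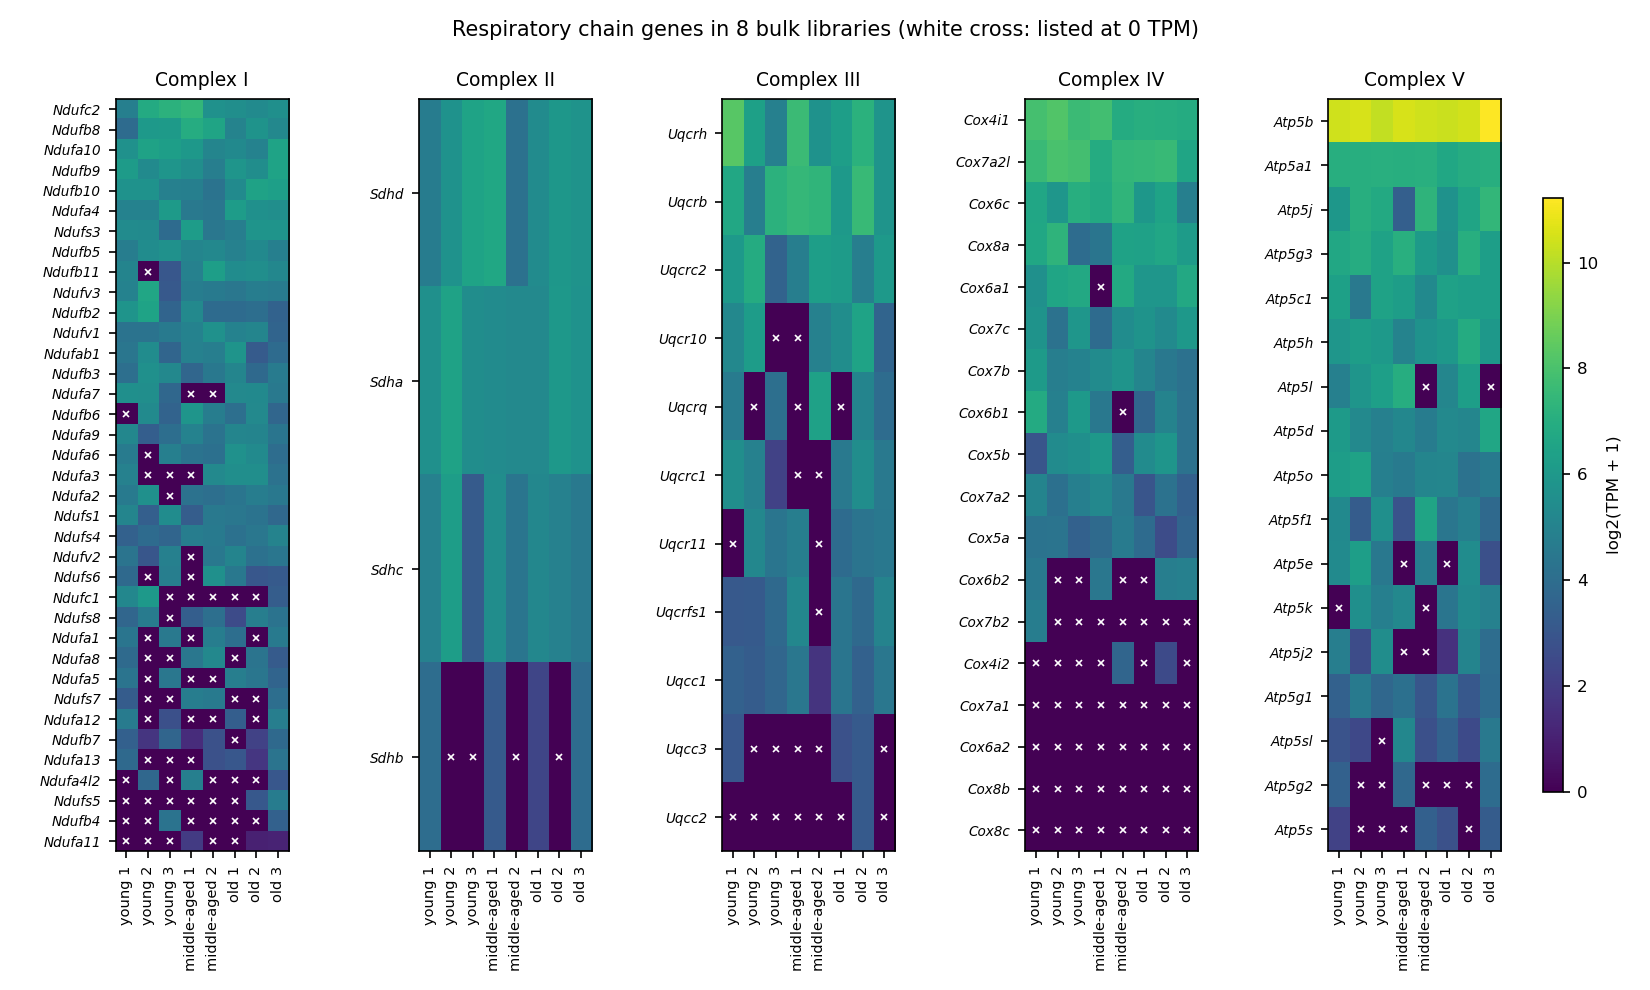
Level of the members, 1 of them not shown, as log2(TPM + 1), in 3 young, 2 middle-aged and 3 old bulk libraries, with members of each complex ordered by mean TPM and a white cross where a member was listed at 0 TPM. Atp5b is the single bright row, and crosses stand in all 3 age groups and mark 45 of the 88 members.

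Promoters are shown for 3 members, picked to set a strong match beside a partial one and none: Cox6a1, the member with the highest mean TPM in young wells, Sdhd, the membrane anchor of complex II, and Atp5b. Nuclear respiratory factor 1 (NRF1), the ETS protein GABPA and YY1 are known regulators of respiratory chain genes. The sequences are the 250 bases before the transcription start, 5′ to 3′ on the gene's own strand, from RefSeq for GRCm38.p6, the assembly also called mm10. Capitals mark matches on either strand to the full palindromic NRF1 site, a shorter NRF1 site TGCGCANGC, the ETS site CCGGAAG or the YY1 site AAGATGGC. Cox6a1 lies on the minus strand (window chr5:115348959-115349208), Sdhd on the minus strand (chr9:50603850-50604099) and Atp5b on the plus strand (chr10:128083057-128083306).
Cox6a1: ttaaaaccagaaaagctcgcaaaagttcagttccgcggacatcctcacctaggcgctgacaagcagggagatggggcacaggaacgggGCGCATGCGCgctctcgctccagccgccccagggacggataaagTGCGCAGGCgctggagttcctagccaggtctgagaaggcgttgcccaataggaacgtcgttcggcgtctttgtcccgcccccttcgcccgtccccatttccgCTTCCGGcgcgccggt
Sdhd: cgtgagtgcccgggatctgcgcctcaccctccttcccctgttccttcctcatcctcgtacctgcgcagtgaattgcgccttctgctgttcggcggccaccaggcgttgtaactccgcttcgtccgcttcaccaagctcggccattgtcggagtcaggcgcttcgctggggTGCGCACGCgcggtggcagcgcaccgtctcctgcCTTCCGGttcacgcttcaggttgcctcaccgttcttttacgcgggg
Atp5b: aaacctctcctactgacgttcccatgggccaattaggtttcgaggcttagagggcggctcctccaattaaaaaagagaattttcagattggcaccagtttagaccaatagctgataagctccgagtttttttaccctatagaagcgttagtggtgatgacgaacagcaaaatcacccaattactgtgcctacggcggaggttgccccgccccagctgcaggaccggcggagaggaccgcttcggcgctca
The Cox6a1 window holds a full NRF1 site, a shorter one and an ETS site, the Sdhd window a shorter NRF1 site and an ETS site, and the Atp5b window none of the 4. RefSeq starts were matched for 73 of the 88 members, and the motifs were counted over 250 bases before and 50 after each start. The full NRF1 site was found for 5 members (Ndufa11, Uqcrc1, Cox6a1, Atp5g2 and Atp5k), which is 6.85% of those matched, beside 1.80% of the 13087 genes that were tested in bulk and have a promoter entry. The shorter site, which can share bases with the full site, was found for 17.8% of members and 7.41% of tested genes. The ETS site was present for 21.9% of members and 15.2% of tested genes, and the YY1 site for 16.4% of members and 4.22% of tested genes. A CCAAT box was found for 45.2% of members and 42.6% of tested genes, and TATAAA for 9.59% of members and 12.1% of tested genes. These shares describe letters in a window and say nothing of binding.

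The genes for these factors were themselves transcribed at every age. Nrf1 had 22.2, 7.33 and 32.8 TPM in young, 17.4 and 20.1 TPM in the middle-aged pair and 15.8, 21.6 and 21.8 TPM in old libraries. Gabpa had 43.8, 54.8 and 66.2 TPM in young, 81.6 and 38.7 TPM in the middle-aged pair and 36.3, 66.8 and 72.0 TPM in old libraries. The young and old ranges overlap for both, and limma gave adjusted p = 1 for both between old and young libraries.

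Of the 88 members, 45 were listed at 0 TPM in at least 1 bulk library and 43 in none. Many of the 45 are subunits needed in nearly every cell, while others are isoforms restricted to some tissues or states. Even mt-Nd4l, a mitochondrial transcript at 3944 to 5991 TPM in 6 libraries, was listed at 0 in 1 old and 1 young library. A 0 here is therefore given only as a listed value, which alone does not show absence. By library, 13, 26 and 24 members stood at 0 in young, 26 and 25 in the middle-aged pair and 19, 14 and 9 in old libraries. The middle-aged libraries thus had as many members at 0 as the second young library, although the first middle-aged library had 17004 genes at 1 TPM or more against 12849 in that young library. In complex I the members at 0 somewhere were Ndufa1, Ndufa2, Ndufa3, Ndufa4l2, Ndufa5, Ndufa6, Ndufa7, Ndufa8, Ndufa11, Ndufa12, Ndufa13, Ndufb4, Ndufb6, Ndufb7, Ndufb11, Ndufc1, Ndufs5, Ndufs6, Ndufs7, Ndufs8 and Ndufv2. In complex II this was Sdhb, and in complex III it was Uqcc2, Uqcc3, Uqcr10, Uqcr11, Uqcrc1, Uqcrfs1 and Uqcrq. In complex IV they were Cox4i2, Cox6a1, Cox6a2, Cox6b1, Cox6b2, Cox7a1, Cox7b2, Cox8b and Cox8c, and in complex V Atp5e, Atp5g2, Atp5j2, Atp5k, Atp5l, Atp5s and Atp5sl. Among genes averaging 5 TPM or more, 32 of 75 members (42.7%) and 39.1% of all 11778 genes were at 0 in at least 1 library. Among genes averaging 1 TPM or more, these were 39 of 82 members (47.6%) and 66.1% of all 22492 genes. Neither floor matches the members to genes of the same level. Members at 0 somewhere had a median transcript length of 680 bases, against 1046 bases for the members never at 0, and the part of transcript length was not tested.

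Some members share sequence with other genes, and how reads on them were divided is not given. Of the 75-base stretches of the main transcript, 86.9% of those of Atp5g2, 76.0% of those of Atp5l and 50.4% of those of Cox7c also occur in transcripts of other genes, mostly unnamed Gm loci, and their values are uncertain for that reason. In all, 22 members share more than 10% of such stretches, 7 of them among the members at 0 somewhere and 15 among the others. For Cox4i1 the share is 11.6%, with Emc8, which overlaps it on the opposite strand.

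Complex I takes electrons from NADH through nuclear core subunits that hold its flavin and iron-sulfur clusters. Ndufs1, the largest subunit, had 33.4, 9.57 and 43 TPM in young, 8.86 and 22.2 TPM in the middle-aged pair and 21, 18.2 and 12.8 TPM in old libraries. Ndufv1, which binds NADH, had 18.5, 18.6 and 22.6 TPM in young, 30.1 and 50.8 TPM in the middle-aged pair and 30.6, 32.9 and 11.3 TPM in old libraries. For Ndufv1 both middle-aged libraries lay above every young one, and for Ndufs1 the ages overlapped. Ndufs3 had 41.9, 40.2 and 14.2 TPM in young, 72.7 and 20.9 TPM in the middle-aged pair and 26.8, 55.3 and 54.3 TPM in old libraries. The core subunits Ndufs7, Ndufs8 and Ndufv2 were each listed at 0 in at least 1 library. Ndufs7 had 8.63, 0 and 0 TPM in young, 26.1 and 23.3 TPM in the middle-aged pair and 0, 0 and 15.8 TPM in old libraries. Ndufs8, which carries iron-sulfur clusters, had 11.9, 24.5 and 0 TPM in young, 9.07 and 16.1 TPM in the middle-aged pair and 4.92, 26.4 and 18.1 TPM in old libraries, and Ndufv2 had 19.1, 7.12 and 28.3 TPM in young, 0 and 21.4 TPM in the middle-aged pair and 32.3, 17.3 and 20 TPM in old libraries. In these 3 genes no age stood apart from both others except that Ndufs7 was highest in the middle-aged pair. The highest member of the complex on average was the accessory subunit Ndufc2, with 27.9, 114 and 147 TPM in young, 169 and 50.1 TPM in the middle-aged pair and 45.7, 40.9 and 47.2 TPM in old libraries. Its 3 old libraries lay close together while young and middle-aged libraries spread widely.

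Complex II, or succinate dehydrogenase, joins the chain to the citric acid cycle. Sdha, its flavoprotein, had 48.4, 86.0 and 44.9 TPM in young, 42.1 and 37.3 TPM in the middle-aged pair and 38.5, 61.3 and 51 TPM in old libraries. The anchor Sdhd had 25.2, 52.3 and 90.9 TPM in young, 103 and 17.1 TPM in the middle-aged pair and 41.9, 61 and 53.8 TPM in old libraries, and the anchor Sdhc had 29.4, 74.5 and 8.38 TPM, 44.2 and 19.6 TPM, and 36.1, 29.6 and 22.1 TPM in the same ages. Sdhb, which carries the iron-sulfur clusters, was low or listed at 0 in bulk: 15.2, 0 and 0 TPM in young, 8.03 and 0 TPM in the middle-aged pair and 4.01, 0 and 14.8 TPM in old libraries. In the young wells its mean was 34.7 TPM, beside 40.95 TPM for Sdha, 38.7 TPM for Sdhd and 8.71 TPM for Sdhc. Old and young libraries overlapped for all 4 subunits.

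Complex III passes electrons on to cytochrome c, and its members spread widely between libraries of 1 age. Uqcrh, the hinge subunit, was highest on average, with 313, 82.9 and 28.7 TPM in young, 198 and 51.4 TPM in the middle-aged pair and 77.6, 143 and 54.4 TPM in old libraries. Uqcrb, a small subunit, followed with 106, 26.5 and 148 TPM in young, 179 and 159 TPM in the middle-aged pair and 64.5, 186 and 55.6 TPM in old libraries. Uqcrfs1, the Rieske iron-sulfur protein, had 7.87, 8.17 and 13.4 TPM in young, 36.1 and 0 TPM in the middle-aged pair and 19.6, 13.2 and 31.2 TPM in old libraries. Its old and young values met only at 13.2 and 13.4 TPM. The core protein Uqcrc2 had 65.7, 118 and 11 TPM in young, 27.1 and 76.1 TPM in the middle-aged pair and 70.6, 26.5 and 65.7 TPM in old libraries. Of the 3 assembly factors with Uqcc names, Uqcc1 was never at 0 (2.19 to 21.1 TPM), and Uqcc2 was above 0 in 1 old library only, at 7.97 TPM.

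Complex IV, cytochrome c oxidase, has several subunits with a common isoform and a second one restricted to muscle fibres, brown fat, lung, testis or low oxygen. The isoforms known from contractile muscle, Cox6a2, Cox7a1 and Cox8b, were listed at 0 in all 8 bulk libraries, as was Cox8c, known from testis. Their common partners were above 0 in most libraries. Cox6a1 had 48, 96.6 and 108 TPM in young, 0 and 113 TPM in the middle-aged pair and 58.6, 59 and 109 TPM in old libraries. Cox8a had 103, 155 and 14.4 TPM in young, 19.3 and 86.2 TPM in the middle-aged pair and 83.6, 98.1 and 70.4 TPM in old libraries, and Cox7a2 ranged between 6.69 and 37.03 TPM. Cox5a and Cox5b, which surround the catalytic core and have no such second form here, were lower than Cox4i1 in every library. Cox5a had 18.4, 18.7 and 10.3 TPM in young, 13.9 and 24.7 TPM in the middle-aged pair and 14.1, 5.05 and 11.2 TPM in old libraries, and Cox5b had 6.82, 42 and 46.9 TPM in young, 62.5 and 9.22 TPM in the middle-aged pair and 40.9, 56.3 and 17.7 TPM in old libraries. Cox7b had 68.6, 27.2 and 30.4 TPM in young, 41.8 and 54.5 TPM in the middle-aged pair and 33.5, 21.5 and 17.3 TPM in old libraries. Cox4i2, a lung isoform induced by low oxygen, had 11.5 TPM in 1 middle-aged and 4.71 TPM in 1 old library and 0 elsewhere, whereas the lowest value of Cox4i1 was 118 TPM. Of the pair known from testis, Cox6b2 had 21.4, 0 and 0 TPM in young, 20.8 and 0 TPM in the middle-aged pair and 0, 26.5 and 28.5 TPM in old libraries, and Cox7b2 was above 0 in 1 library, at 25.9 TPM in the first young one. Ndufa4, named for complex I but since assigned to complex IV, had 30.2, 30.0 and 67.4 TPM in young, 22.5 and 20.1 TPM in the middle-aged pair and 73.2, 49 and 45.8 TPM in old libraries. By its name it is kept in complex I in all medians, sums and counts here. Its counterpart Ndufa4l2, induced by low oxygen, was above 0 in 3 libraries, with 27.3 TPM at most. The markers of muscle fibres were also low: over 16 of them the sum was 58.4 to 152 TPM in old and 65.1 to 82.9 TPM in young libraries, with Pvalb at 0 in all 8 libraries and Ckm above 0 in 1. Over 6 brown fat markers it was 10.7 to 17.3 TPM in old and 0 to 34.2 TPM in young libraries, with Cidea and Cfd at 0 in all 8 libraries.

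In complex V the c subunit of the rotor ring is encoded by 3 genes with the same mature protein. Atp5g3 was the highest, with 105, 121 and 87.8 TPM in young, 136 and 67.2 TPM in the middle-aged pair and 49.3, 132 and 76.0 TPM in old libraries. Atp5g1 had 10.3, 22.6 and 12.4 TPM in young, 16.6 and 7.07 TPM in the middle-aged pair and 18.3, 7.57 and 14.2 TPM in old libraries, and Atp5g2, whose sequence is largely shared with other loci, was at 0 in 5 libraries. Atp5c1, the central shaft, had 81.9, 21.9 and 86.8 TPM in young, 74.1 and 38.5 TPM in the middle-aged pair and 83.3, 78.1 and 78.1 TPM in old libraries. The old libraries thus lay close together, while 1 young library lay far below the others.

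Old against young libraries gave no member past the threshold. With limma on log2(TPM + 1) over the 22492 genes that averaged 1 TPM or more, 0 of the 82 members tested and 0 of all genes reached an adjusted p of 0.05 (background 0%). The 6 members below the filter were Ndufa11, Uqcc2, Cox6a2, Cox7a1, Cox8b and Cox8c. At an unadjusted p under 0.05, 3 members lay higher in old libraries (Ndufa3, Ndufb11 and Ndufs5; background 3.72% of all genes) and 2 lower (Cox4i1 and Atp5o; background 2.17%). Old and young libraries did not overlap, with old above, for 2 members (Ndufb11 and Ndufs4; background 5.85%) and, with old below, for 2 (Cox4i1 and Cox7a2l; background 4.16%). As shares of the 82 members tested these counts are 2.44 to 3.66%, near or below the background. Below 0 in the log2 difference were 34 of 82 members (41.5%; background 50.4%).

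Cox4i1, the common isoform of the regulatory subunit of complex IV, had the smallest p among members. It had 130, 126 and 118 TPM in old libraries, against 237, 286 and 201 TPM in young libraries. All old libraries lay below all young ones, and the middle-aged libraries, at 228 and 120 TPM, spanned nearly both ranges. The means were 125 ± 6.24 TPM in old and 241 ± 42.6 TPM in young libraries (SD, n = 3 each), a log2 difference of -0.93 (SE 0.32, 95% interval -1.65 to -0.22). The unadjusted p was 0.015 and limma's adjusted p was 0.738, and leaving out each library in turn kept the difference between -1.06 and -0.80.

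Cox7a2l, a factor that joins complexes III and IV into supercomplexes and of which C57BL/6 mice carry a shortened form, also lay lower in old libraries. It had 176, 190 and 94.8 TPM in old libraries, against 192, 257 and 236 TPM in young libraries. The gap between the groups was narrow, 190 against 192 TPM, and the log2 difference was -0.62 (SE 0.35, limma adjusted p = 0.839). Without the old library at 94.8 TPM the difference was -0.31. Both middle-aged libraries, at 119 and 169 TPM, also lay below the young ones. Cox7a2 had 6.69, 18 and 9.91 TPM in old libraries, against 32.6, 16.6 and 27.6 TPM in young libraries, with an overlap of 1 library (log2 difference -1.14, SE 0.53, limma adjusted p = 0.833).

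Atp5o, a stalk subunit of ATP synthase, had 34.3, 18 and 23.1 TPM in old libraries, against 75.6, 88.0 and 27.7 TPM in young libraries. The young library at 27.7 TPM fell inside the old range, and the log2 difference was -1.20 (SE 0.51, limma adjusted p = 0.831). Its sequence is shared over 39.1% of its 75-base stretches. Atp5e, the epsilon subunit, had 0, 42.5 and 5.60 TPM in old libraries, against 40.8, 76.7 and 21.7 TPM in young libraries, and its groups overlapped.

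The members that lay higher in old libraries at an unadjusted p under 0.05 or without overlap belong to complex I. Ndufs4, an accessory subunit needed for a stable complex and best known as a mouse model of Leigh syndrome, had 17.1, 21.1 and 31.4 TPM in old libraries, against 10.3, 14.3 and 11.7 TPM in young libraries. All old libraries and both middle-aged ones (26.3 and 23.4 TPM) lay above the young ones, and the log2 difference between old and young was 0.85 (SE 0.46, limma adjusted p = 0.839). Ndufb11, an accessory subunit of the membrane arm, had 42.3, 46.2 and 35.1 TPM in old libraries, against 32, 0 and 7.26 TPM in young libraries. These groups did not overlap, but the fitted difference of 2.69 (SE 1.03, limma adjusted p = 0.808) was 1.35 without the young library listed at 0. Ndufb11 overlaps Rbm10 on the opposite strand, and whether counting used strand is not given.

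Ndufa3 had 45.6, 45.7 and 17.6 TPM in old libraries, against 29, 0 and 0 TPM in young libraries, and Ndufs5 had 0, 7.41 and 24.8 TPM in old libraries, against 0 in all 3 young libraries. Both are small accessory subunits whose old and young values overlap. Ndufb2, a subunit of the membrane arm, leaned the other way, with 14.2, 15.5 and 10.5 TPM in old libraries, against 54.8, 90.7 and 11.2 TPM in young libraries (log2 difference -1.48, SE 0.72, limma adjusted p = 0.835). The young library at 11.2 TPM sat with the old ones, and the difference was -2.33 without it and -0.87 without the young library at 90.7 TPM.

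**Figure D2:**
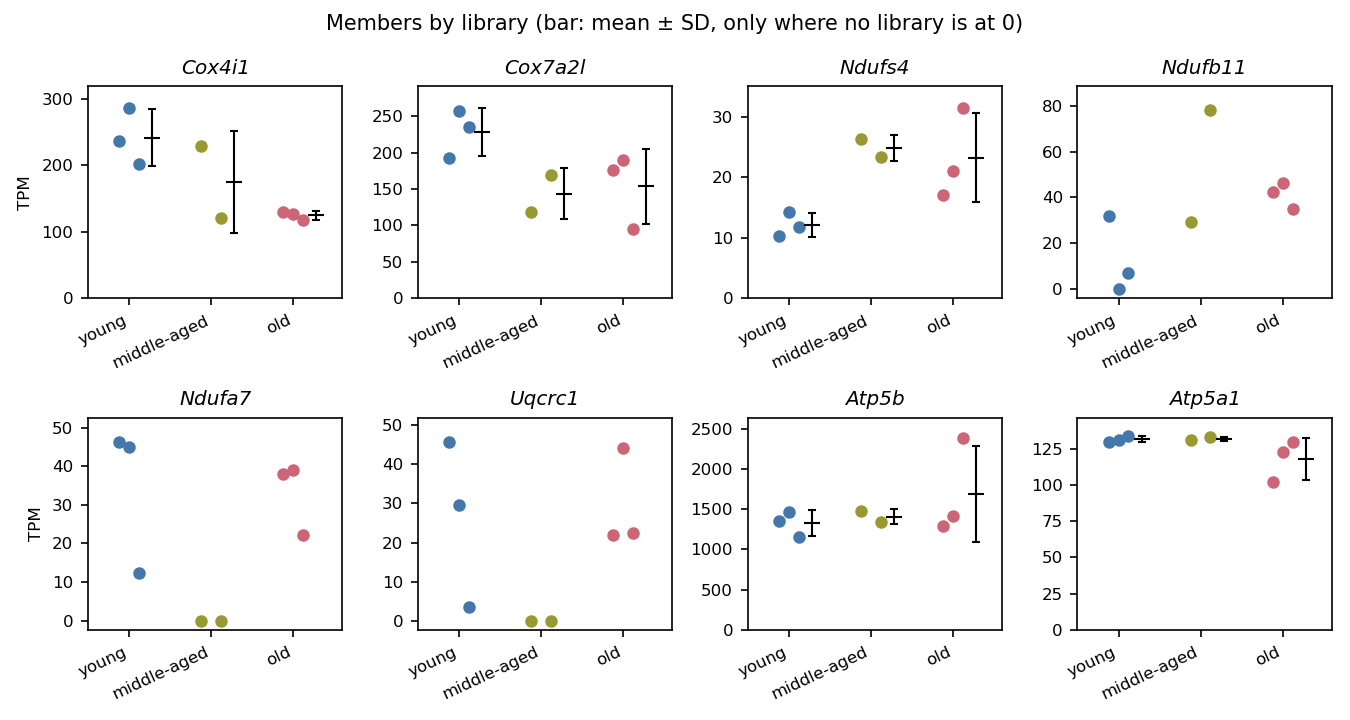
TPM of 8 members in each bulk library by age, with the mean ± SD (n = 3, 2 and 3) only for members never at 0. Cox4i1 and Cox7a2l lie lower and Ndufs4 and Ndufb11 higher in every old than in every young library, Ndufa7 and Uqcrc1 are at 0 in both middle-aged libraries, and Atp5b has 1 old library at 2382 TPM.

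By complex, the medians of the log2 differences between old and young libraries had different signs. The median was 0.25 over 37 tested members of complex I, 0.08 over 4 of complex II, 0.62 over 10 of complex III, -0.64 over 14 of complex IV and -0.01 over 17 of complex V, beside 0.00 over all 22492 genes. In complex III 9 members lay higher and 1 lower, and in complex IV 5 lay higher and 9 lower. The complex III set lacks Cyc1, the cytochrome c1 subunit, which the choice by symbol misses. Cyc1 is counted below among the electron carriers. It had at most 27.98 TPM in old and at least 28.54 TPM in young libraries, so it lay against the lean of complex III. Ndufa4, kept by its name in complex I, had a log2 difference of 0.46, against the lean of complex IV. Over all 82 members the median was 0.16 with 48 higher and 34 lower, and over the 43 members never at 0 it was -0.02 with 20 higher and 23 lower. When each library was left out in turn, the median over all members lay between 0.03 and 0.30, that of complex I between 0.22 and 0.42, of complex II between -0.14 and 0.10, of complex III between 0.49 and 0.87, of complex IV between -0.79 and -0.37 and of complex V between -0.20 and 0.36. The signs of complexes II and V thus depended on single libraries. The lowest value over all members came without the old library that was highest in Atp5b, and the highest without the first young library. For complex IV, -0.37 came without that same old library, and for complex I, 0.42 without the first young one. Members of a complex are not independent of each other, so these counts carry no test. The medians of complexes I and III include members listed at 0 in some library, 21 of the 38 and 7 of the 11. In complex III the 4 members never at 0 lay at 0.61 (Uqcc1), 0.22 (Uqcrb), 0.15 (Uqcrc2) and -0.10 (Uqcrh). In complex I the 17 never at 0 lay on both sides of 0, between -1.48 (Ndufb2) and 0.85 (Ndufs4).

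**Figure D3:**
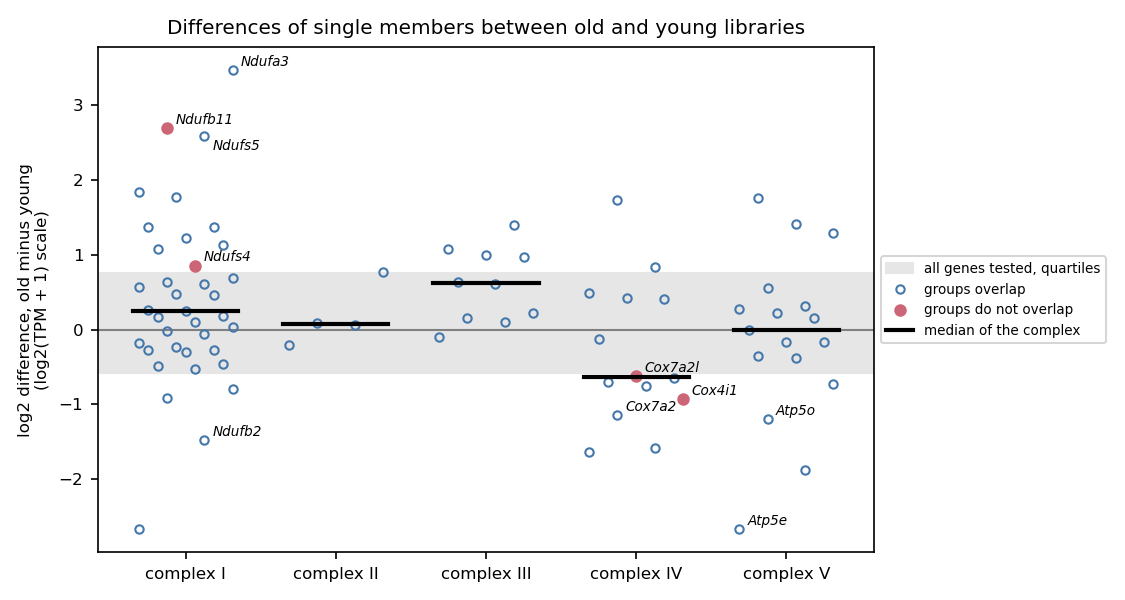
Log2 difference on the log2(TPM + 1) scale, old minus young libraries (n = 3 each), for each tested member by complex, with filled points where the groups do not overlap, black bars at the medians and a grey band for the quartiles of all tested genes. The complex III median lies above 0 and the complex IV median below it, and named members are the 10 with the smallest p.

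The summed TPM of complex IV members was lower in old and in middle-aged libraries than in young ones. It was 1021, 1004 and 928 TPM in young, 690 and 813 TPM in the middle-aged pair and 670, 769 and 583 TPM in old libraries. No old or middle-aged library reached the lowest young one, with means of 674 ± 92.8 TPM in old and 984 ± 49.6 TPM in young libraries (SD, n = 3 each). Without Cox4i1, which made up 14.8 to 33.1% of the sum, the order stayed at 549 ± 88.9 TPM in old, against 743 ± 36.1 TPM in young libraries. That sum still holds Cox7a2l, at 94.8 to 257 TPM, which also lay lower in every old and middle-aged library than in every young one. Whether the order stays without both genes is not given here. In bulk RNA, fewer cells of a type and less RNA per cell cannot be told apart. After transcripts of the mitochondrial genome were left out of the total, the complex IV sum was 1122 ± 172 in old, against 1606 ± 53.9 TPM in young libraries.

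The sums of the other complexes overlapped between ages. For complex I they were 949, 1100 and 913 TPM in young, 1086 and 934 TPM in the middle-aged pair and 963, 950.3 and 1032 TPM in old libraries. For complex III they were 617, 382 and 253 TPM in young, 488 and 403 TPM in the middle-aged pair and 339, 582 and 298 TPM in old libraries. The sum over all 88 members was 4603 ± 647 TPM in old and 4654 ± 434 TPM in young libraries. Without Atp5b, at 2382 TPM in 1 old library, it was 2908 ± 336 TPM in old and 3329 ± 278 TPM in young libraries, and the ranges overlapped.

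**Figure D4:**
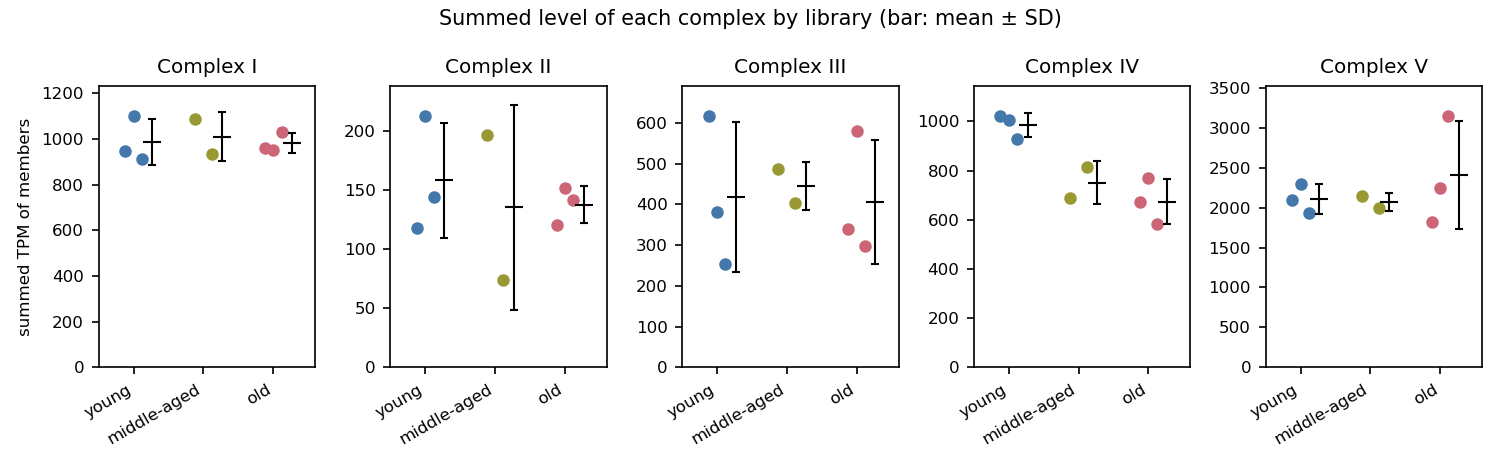
Summed TPM of the members of each complex in 3 young, 2 middle-aged and 3 old bulk libraries, with the mean ± SD beside the points and axes starting at 0. In complex IV all old and middle-aged libraries lie below the young ones, between 583 and 813 TPM, and in the other complexes the ages overlap.

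Markers of other cell types differed between old and young libraries alongside these values. All 11 Schwann cell markers lay higher in old libraries, 8 of them at an unadjusted p under 0.05 and 0 after adjustment (smallest limma adjusted p = 0.172, Kcna1). Their sum was 1735 to 6473 TPM in old and 814 to 1898 TPM in young libraries, and in young libraries S100b was at 0 in 2 and Ncmap and Cdh19 in 1 each. Most of each sum was Pmp22, at 1425, 5013 and 1291 TPM in old and 729, 1723 and 1234 TPM in young libraries. Without Pmp22 the old sums lie above the young ones with no overlap. All 6 tested tenocyte markers lay higher, with sums of 68.7 to 88.0 TPM in old and 15.2 to 29.1 TPM in young libraries. Fibroblast markers lay higher for 8 of 11 tested, with sums of 1526 to 2154 TPM in old and 1158 to 1584 TPM in young libraries. The part of these cells in the member differences was not tested. Smooth muscle and pericyte markers lay higher for 5 of 8 (438 to 883 TPM in old and 477 to 630 TPM in young libraries), endothelial markers for 4 of 6 (41.8 to 70.8 and 24.8 to 40.7 TPM) and macrophage markers for 3 of 4 (28.4 to 59.6 and 26.8 to 47.1 TPM). Of the tested markers, 8 of 11 for fibres and 1 of 2 for brown fat lay higher in old libraries, and for muscle stem cells 3 of 12.

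Middle-aged against young libraries gave 0 of 82 members past the threshold and 1 of all genes (background 0.00445%). At an unadjusted p under 0.05, 3 members lay higher in middle-aged libraries (Ndufb11, Ndufs7 and Ndufa8; background 5.5%) and 5 lower (Ndufa7, Uqcrc1, Atp5j2, Cox6b1 and Ndufa5; background 2.28%). The groups did not overlap for 7 members with middle-aged above (background 12.6%) and 9 with middle-aged below (background 5.37%), which is 8.54% and 11% of members tested. Among the 7 were Ndufa8, Ndufb8, Ndufs4, Ndufs7, Ndufv1 and Uqcrb, and the 9 were Ndufa4, Ndufa7, Ndufb10, Sdha, Uqcrc1, Cox6b1, Cox7a2l, Atp5h and Atp5j2. The log2 difference was below 0 for 45 of 82 members (54.9%; background 40.6%). With 2 libraries in a group, such separation is easily reached, as the background shows.

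Markers of other cells also differed between middle-aged and young libraries, none of them past the adjusted threshold. Macrophage markers summed to 78 to 108 TPM in middle-aged and 26.8 to 47.1 TPM in young libraries, with 3 of 4 tested higher, tenocyte markers to 72.5 to 98.5 TPM and 15.2 to 29.1 TPM, with 5 of 6 higher, and endothelial markers to 55.9 to 94.4 TPM and 24.8 to 40.7 TPM, with 5 of 6 higher. For Schwann cell markers 9 of 11 lay higher, with overlapping sums of 994 to 1396 TPM in middle-aged and 814 to 1898 TPM in young libraries. Pmp22 alone held most of each sum, at 810 and 993 TPM in middle-aged and 729, 1723 and 1234 TPM in young libraries. Without Pmp22 both middle-aged sums lie above the young ones, the first narrowly. For muscle stem cell markers 11 of 12 lay lower. The part of all these cells in the member differences and in the complex IV sum was not tested.

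The lower members with the smallest p were listed at 0 in both middle-aged libraries. Ndufa7, an accessory subunit of complex I, had 0 and 0 TPM in middle-aged libraries, against 46.4, 45.1 and 12.3 TPM in young libraries. The old libraries, at 38, 38.9 and 22.2 TPM, were like the young ones. Its fitted log2 difference depends on the pseudocount, -4.94 at 1 TPM (limma adjusted p = 0.0901) and -8.21 at 0.1 TPM (limma adjusted p = 0.0230), and over all alternatives the adjusted p lay between 0.0230 and 0.539. Uqcrc1, a core protein of complex III, had 0 and 0 TPM in middle-aged libraries, against 45.8, 29.6 and 3.60 TPM in young libraries (limma adjusted p = 0.295). Atp5j2, the f subunit of ATP synthase, had 0 and 0 TPM in middle-aged libraries, against 26.8, 5.05 and 43.9 TPM in young libraries (limma adjusted p = 0.359). The other members at 0 in both middle-aged libraries, such as Ndufa5 and Ndufa12, were also at 0 in at least 1 young library. Cox6b1, which bridges the monomers of the complex IV dimer, had 21.6 and 0 TPM in middle-aged libraries, against 116, 28.9 and 64.7 TPM in young libraries (limma adjusted p = 0.397).

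Old against middle-aged libraries mirrored this, since both comparisons use the same 2 middle-aged libraries. Of 82 members and of all genes, 0 passed the threshold (background 0%). At an unadjusted p under 0.05, 6 members lay higher in old libraries (background 2.34%) and 3 lower (background 3.85%). The 6 were Ndufa7, Uqcrc1, Ndufa5, Atp5j2, Ndufb10 and Ndufa4, and the 3 were Cox6c, Ndufs7 and Cox7a2. The groups did not overlap for 9 members with old above (background 7.15%) and 9 with old below (background 12.8%), and the log2 difference was below 0 for 31 of 82 (37.8%; background 53%). Uqcrc1 had 22, 44.2 and 22.5 TPM in old libraries, against 0 in both middle-aged ones (limma adjusted p = 0.307), and Ndufa5 had 27.2, 20.0 and 11.3 TPM in old libraries, against 0 in both (limma adjusted p = 0.602). Ndufb10, never at 0, had 40.9, 86.1 and 78.7 TPM in old libraries, against 28 and 18.2 TPM in middle-aged libraries (log2 difference 1.49, SE 0.50, limma adjusted p = 0.687). Ndufa4 showed the same order with no 0, at 73.2, 49 and 45.8 TPM in old libraries, against 22.5 and 20.1 TPM in middle-aged libraries (log2 difference 1.32, SE 0.49, limma adjusted p = 0.724). Atp5a1, with 102, 123 and 130 TPM in old libraries, against 131 and 133 TPM in middle-aged libraries, shows how small a gap counts as separation here.

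Genes that assemble or feed the chain gave no call between old and young libraries either, with limma's adjusted p above 0.05 for all. Of complex I assembly factors 6 lay higher and 8 lower of 14 tested, and Timmdc1 had the smallest unadjusted p (0.0348), with a log2 difference of 2.13 (SE 0.88). Complex II factors lay higher for 2 of 4, complex III factors for 2 of 3 and complex IV factors for 13 of 23, with Lyrm7, which serves the Rieske protein of complex III, at -1.17 (SE 0.61). Of 4 complex V genes 3 lay lower, among them Atpif1, the inhibitor of the reverse reaction, at -1.10 (SE 0.65). Electron carriers and the enzymes that feed ubiquinone lay higher for 8 of 14, and Dhodh, which couples pyrimidine synthesis to ubiquinone, was at 0, 0 and 2.22 TPM in old libraries, against 22.8, 30.2 and 0 TPM in young libraries. Regulators of mitochondrial biogenesis lay higher for 10 of 13, with Ppargc1a, the coactivator of this programme, at 11.7, 31.9 and 5.50 TPM in old libraries, against 9.02, 3.1 and 16.8 TPM in young libraries. None of these differences passed the adjusted test.

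The 13 subunits encoded by mitochondrial DNA summed to 105022 to 141869 TPM in old and 128989 to 148656 TPM in young libraries, which overlap. Of the 13, 10 lay lower in old libraries, with a median log2 difference of -0.30 and 0 past the threshold. For 5 of the 13 all old libraries lay below all young ones (background 4.16%), and for 0 above them (background 5.85%). The 5 were mt-Nd1, mt-Nd4, mt-Nd5, mt-Nd6 and mt-Cytb, with a narrow gap for mt-Nd5, 6790 against 6794 TPM. The smallest p was that of mt-Nd6, with 4383, 3948 and 3015 TPM in old libraries, against 6127, 6625 and 5557 TPM in young libraries (log2 difference -0.70, SE 0.25, limma adjusted p = 0.763). In complex IV, mt-Co1, its catalytic subunit, had 30922, 28450 and 28577 TPM in old libraries, against 21777, 31504 and 31312 TPM in young libraries, with a log2 difference of 0.08 (SE 0.24). For mt-Co2 these were 13092, 9947 and 4896 TPM, against 12829, 16757 and 14679 TPM. For mt-Co3 they were 3554, 3896 and 2038.5 TPM, against 0.03, 4131 and 5013 TPM. With mt-Nd3 also at 0 in the first young library, mt-Co3 and mt-Nd3 count among the subunits that lay higher in old libraries.

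In single wells the members were found in fewer of the old than of the young wells, beside a larger share of spike-in RNA in old wells. Spike-in RNAs took a median of 95.6% of TPM in old and 66.6% in young wells, and a median of 64 genes in old and 1854 in young wells reached 1 TPM. Of the 31 old wells 16 held none of the 88 members, against 5 of the 64 young wells, and the median number of members found was 0 in old and 31 in young wells. A member was found in a median of 9.68% of old and 32% of young wells. With 1 mouse per age, the wells allow no test between ages, and the wells of a mouse and its age cannot be told apart.

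In wells with at least 1000 genes, 7 old and 54 young, the number of members found and their sum lay close together, while single shares were more often lower in old wells. The share of wells was lower in old wells for 59 members and higher for 25, with a median share of 28.6% in old and 38% in young wells. Such counts, and those of the intervals below, are not given here for all genes. Whether the order is particular to the members was therefore not tested. The median number of members found was 31 in old and 33 in young wells, and their summed TPM without spike-ins had a median of 14483 in old and 13946 in young wells. For none of the 88 members did the exact (Clopper-Pearson) 95% intervals of the shares of wells lie apart, which with 7 old wells leaves wide ranges. These intervals cover counting error only. Cox4i1 was found in 6 of 7 old wells (85.7%, interval 42.1 to 99.6%) and in 53 of 54 young wells (98.1%, interval 90.1 to 100%), with mean TPM of 227 and 347. Cox6a1 was found in 5 of 7 old wells (71.4%, interval 29 to 96.3%) and in 46 of 54 young wells (85.2%, interval 72.9 to 93.4%), with mean TPM of 428 and 556.

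The order of members in young wells resembled that in young bulk libraries, with exceptions. Spearman's rho between the mean TPM was 0.74 over the 88 members, a description across genes that are not independent. Cox6a1 ranked first in young wells with a mean of 473 TPM over all 64 wells, but 12th in young bulk libraries with 84.1 TPM, followed in the wells by Cox4i1 (293 TPM), Atp5b (265 TPM) and Uqcrh (230 TPM). Ndufs5, Ndufa11, Uqcc2 and Cox8b, at 0 in all 3 young bulk libraries, were found in 17, 13, 11 and 1 of the 64 young wells, so a 0 in bulk did not mean that no young cell held the transcript. Ndufa7 was found in 28 and Uqcrc1 in 9 young wells. Cox4i2, Cox7a1, Cox7b2 and Cox8c were found in no well, and in the wells with at least 1000 genes 0 of 7 old and 0 of 54 young wells allow shares with the transcript of up to 42.9% and 5.56%. The fibre isoform Cox6a2 was found in 1 old well.

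**Figure D5:**
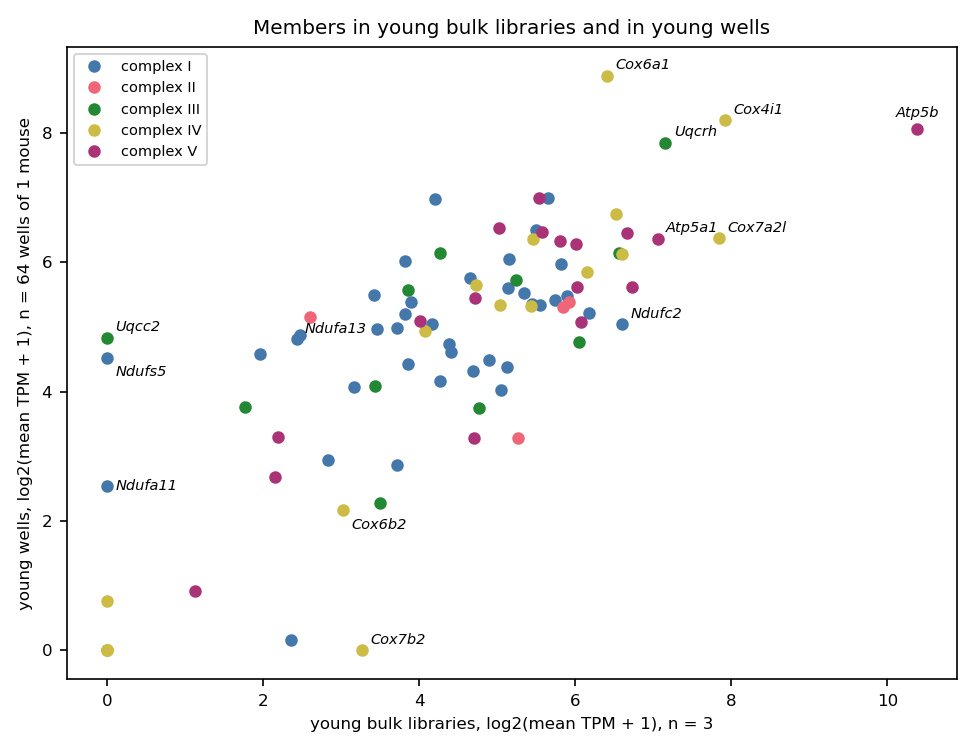
Mean level of each of the 88 members as log2(mean TPM + 1) in 64 wells of 1 young mouse against 3 young bulk libraries, coloured by complex. Most members follow 1 rising cloud (rho 0.74), Atp5b lies far right in bulk, Cox6a1 is highest in wells, and Uqcc2, Ndufs5 and Ndufa11 stand at 0 in bulk but above 0 in wells.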

How the data were processed

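RNA sequencing of 8 bulk libraries and 95 wells was analysed. The deposited values are TPM, per the labels: the authors' transcript abundances scaled to a common total per library. Per the submitters' processing notes, STAR and mm10 were used; for the aligner version, annotation, counting tool and strand setting, none was found (not given in the sources used here). TPM hold no depth, so precision rests on the spread between libraries.

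Groups came from the labels. limma 3.58.1 (R 4.3.3) was run on log2(TPM + 1) with a variance trend, all 8 libraries in 1 fit, on genes averaging 1 TPM or more; two-sided p-values were adjusted by Benjamini-Hochberg over all genes tested (threshold 0.05). Nothing says that the libraries share litters or days, and p-values measure the spread between these mice. Fold changes are on the log2(TPM + 1) scale and understate changes of low genes. The script was tested on simulated data.

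A member was found in a well at 1 TPM or more; exact Clopper-Pearson intervals used a level of 95%, and a share of 0 was given the limit of 3 wells. Shared sequence was counted as 75-base stretches of the main GENCODE vM21 transcript that occur in transcripts of other genes. Motifs were searched on both strands.

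The named genes were the core subunits and isoform families, the 2 highest members of each complex, the 10 smallest p for old against young and 4 for each other comparison, members at 0 and members that did not overlap. The promoters and other genes printed were picked after their values were seen. Members, gene lists (assembly factors, electron carriers, regulators, subunits encoded by mitochondrial DNA and markers of 9 cell types) and tests were chosen with earlier results of these data known. Alternatives covered the pseudocount, filters, rescaling, quantile normalization, the trend, a replicate block and leaving out each library. 1 member is not reported by name here.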

Additional observations from a re-analysis of the deposited data

How the results depend on the processing

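Of the single-gene differences recomputed under the alternatives none changed sign, and 0 members passed the threshold for old against young libraries in any of the 16 alternatives. The counts of members called in the other comparisons did move. With a pseudocount of 0.1 TPM, 1 member (Ndufa7) was called in middle-aged against young and 1 (again Ndufa7) in old against middle-aged libraries. Of all 22492 genes, 7 and 6 were called in these comparisons at that pseudocount. Leaving out each library in turn gave 0 to 2 members in middle-aged against young and 0 to 2 in old against middle-aged libraries, with calls only where a middle-aged library was left out and the lone one was assumed to vary like the other groups. Without the first middle-aged library these were Cox6b1 (log2 difference -5.94, middle-aged minus young) and Uqcrfs1 (4.40, old minus middle-aged). Without the second they were Cox6a1 (-6.33, middle-aged minus young, and 6.20, old minus middle-aged) and Ndufa7 (-4.94 and 5.05). With 1 middle-aged library left, each of these fits called a larger share of all genes than of members. These calls therefore do not set the members apart. The cause was not tested.

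The median of complex II, 0.08, lay between -0.14 and 0.10 when each library was left out and so changed sign, as did that of complex V. The median of complex V between old and young libraries was -0.01 and lay between -0.20 and 0.36 when each library was left out, with 0.36 without the first old library. The log2 ratio of the members' summed TPM, old over young, was -0.02, and -0.20 with Atp5b left out. In wells, the median summed TPM was 0 in old wells, but 4749 in old wells with at least 1000 genes, and the median share of old wells was 28.6% there. In young wells it was 4413, and 13248 with spike-in RNAs left out of the total. All other medians, sums and shares moved by less than their spread between libraries, wells or members.

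Replicate numbers do not pair the libraries: same-numbered libraries had residual correlations of -0.01 to 0.005, and with the number as a replicate block 0 members were called in each comparison. Quantile normalization moved the median of all genes, middle-aged minus young, to 0.00, against 0.18 without it, and that of members to -0.23, against -0.12. Leaving out spike-ins, Atp5b or Cox4i1 was chosen after seeing the data. Depth is unknown for TPM, so low members and listed zeros limit what can be seen.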
